A study of Rattus norvegicus with 12 samples.

Results

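The genes described here encode 6 enzymes that make inflammatory mediators or hyaluronan: Ptgs1, Ptgs2, Ptges and Pla2g4a of prostaglandin synthesis, Nos2 of nitric oxide synthesis and Has2 of hyaluronan synthesis. They were chosen by symbol, with earlier results of these data known. Their names are carried by 7 of the 41012 probes of the array, which name 15427 genes. The arrays measured RNA of hepatocytes that had been isolated by collagenase perfusion from adult Sprague-Dawley rats of 11 weeks and cultured on collagen, the last day without serum. Cells of females and of males were given dexamethasone at 100 nM, written as "nm" in the labels, or 0.01% ethanol as its vehicle, for 6 h. The 4 groups were female dexamethasone, female vehicle, male dexamethasone and male vehicle, with 3 samples each and 1 array a sample. The sex is that of the sample titles, since a separate gender label reads male for all 12 samples. The labels do not tie the replicates to different animals or dishes, so a p-value here covers no more than the variation among these arrays, part of which may be technical.

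Prostaglandins are made in steps. A cytosolic phospholipase A2, encoded by Pla2g4a, releases arachidonic acid from membranes, a cyclooxygenase (Ptgs1, mostly constitutive, or Ptgs2, inducible) turns it into prostaglandin H2, and Ptges, the microsomal prostaglandin E synthase, makes prostaglandin E2. Nos2 is the inducible nitric oxide synthase, which cytokines switch on in hepatocytes and macrophages, and Has2 is a synthase in the plasma membrane that extrudes hyaluronan. Dexamethasone is a synthetic glucocorticoid. The glucocorticoid receptor that it activates is known for lowering the transcription of inflammatory genes, Ptgs2 and Nos2 among them.

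Levels below are log2 of the background-subtracted spot signal minus the 75th percentile of its array, so 0 is the signal that 3 in 4 probes did not exceed, and levels of different probes are not set against each other. A probe counted as measured on an array where the scanner software marked it as well above background, which held for 72.4% to 80.4% of probes on 8 arrays, for 66.5% on male dexamethasone replicate 1 and for 45.8% to 55.7% on the male vehicle arrays. These 4 arrays with the fewest measured probes shared slide 1, where repeated spots of a probe varied with a median coefficient of variation of 12.8% to 19.2%, against 4.65% to 7.20% on slides 2 and 3. On slide 2, female vehicle arrays 1 and 2 lay beside male dexamethasone arrays 2 and 3, and on slide 3 the female dexamethasone arrays lay beside female vehicle array 3. Fkbp5, a direct glucocorticoid target, stood at 3.03 to 3.17 in female dexamethasone against 0.10 to 0.39 in female vehicle, and at 3.54 to 4.24 in male dexamethasone against 0.80 to 1.00 in male vehicle. Of 12 hepatocyte markers, 12 were well above background on 11 arrays and 11 on male vehicle replicate 1.

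Ptgs2 and Has2 were measured in female vehicle alone and were below background wherever dexamethasone had been given. In female cultures both fell with dexamethasone, as did Pla2g4a. Ptgs1, Ptges and Nos2 did not pass the test in either sex. Of the 6 genes, 3 fell in females, where 1.01% of the 30977 probes tested fell, and 0 rose. Ptgs2 and Has2 were tested only because female vehicle, the group where they were high, measured them. The filter thus favoured their fall in females, and the 3 of 6 is no test of the genes as a set. In 4 of the 6 genes every female dexamethasone array lay below every female vehicle array, as 17% of probes did, and in males this held for 3 of the 6, against 14.1% of probes. Rises made up 73.4% of all female calls, and 62.5% with arrays scaled by their median. The 3 in males include Ptgs2 and Has2, which no male array measured. The median difference of the 6 genes was -1.11 in females and, with the unmeasured Ptgs2 and Has2 included, -0.99 in males, while that of all probes tested was -0.02 in females and -0.06 in males.

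**Figure D1:**
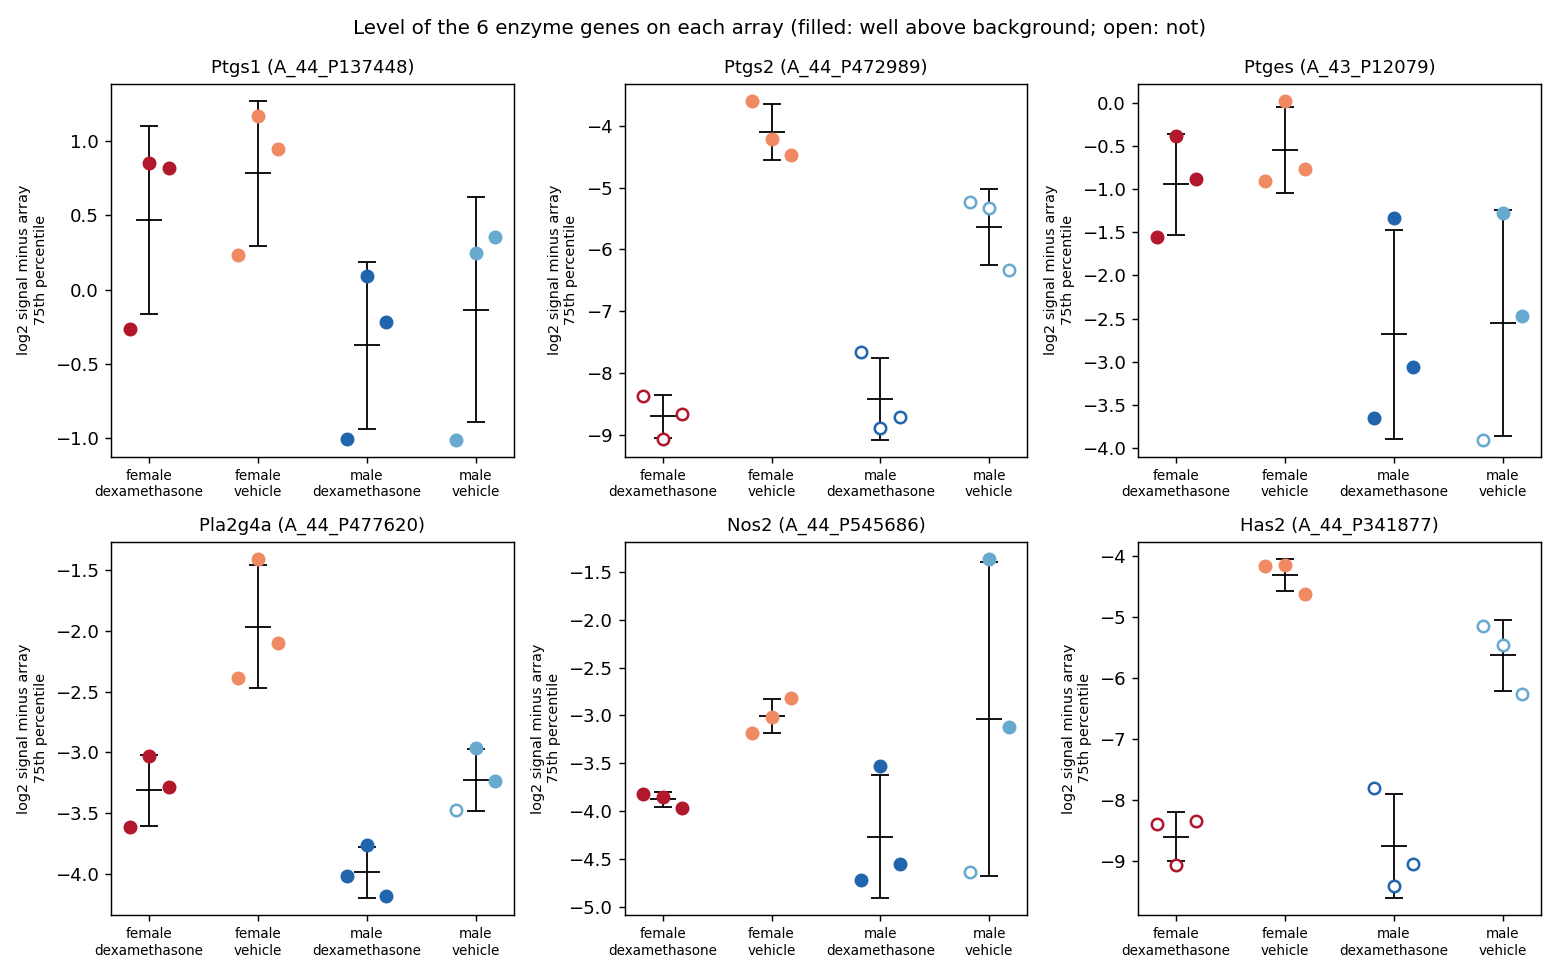
Log2 level relative to the array's 75th percentile (vertical axes, 1 panel a gene with its own scale) on each of the 12 arrays, by group, with the mean and SD of 3 arrays as bars. Filled points were well above background: Ptgs2 and Has2 are filled on the 3 female vehicle arrays only, and the Ptgs1 point of replicate 1 is the lowest of its group in every group.

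Ptgs2, the inducible cyclooxygenase, lies on chromosome 13 of build rn3 and had 2 probes, each shown because their readings differed. The first, A_44_P472989 at chr13:64448537-64448596 on the plus strand, was spotted 10 times on each array. The second, A_44_P278593 at chr13:64444979-64445163 on the plus strand, spans 185 bases of the genome with a probe of 60 bases and so crosses an intron; it had 1 spot. The first 30 bases of the first probe and the whole of the second are given 5′ to 3′.
Ptgs2 first probe: cattcttgtcctgaagaattgctttcttat
Ptgs2 second probe: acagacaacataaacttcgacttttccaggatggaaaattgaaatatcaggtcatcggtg

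At its first probe, Ptgs2 stood at -8.37, -9.07 and -8.67 on the female dexamethasone arrays, none of which measured it. In female vehicle it stood at -3.59, -4.22 and -4.47, measured on all 3 arrays. The groups did not overlap, and each vehicle array lay above each dexamethasone array by more than 3 units. At spot level 28 of 28 usable spots were well above background in female vehicle, against 0 of 29 in female dexamethasone, where 21 of the 29 held the positive stand-in value that the software writes when no signal is left. Ptgs2 was at least 6.07-fold lower with dexamethasone in females, with the dexamethasone side set at the lowest measurable level of each array (limma difference -4.61 ± 0.39, SE, adjusted p = 0.00018; means -8.70 ± 0.35 and -4.09 ± 0.45, SD, n = 3 each). With slide as a block the difference was -4.23 (adjusted p = 0.0088). In either sex the blocked difference equals that within the slide that holds both treatments, slide 3 for females and slide 1 for males, where 1 array stands alone in an arm (female vehicle replicate 3, male dexamethasone replicate 1) and is assumed to vary like the others; the pair of values is 1 contrast. With normexp background correction, which adds an offset of 50 to each signal, the female difference of Ptgs2 was -0.99 (limma adjusted p = 0.0088).

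The second Ptgs2 probe was measured on no array. It stood at -8.40, -9.15 and -8.97 in female dexamethasone and at -9.18, -8.94 and -8.11 in female vehicle, so the pair of probes disagree in female vehicle, and the fall of Ptgs2 in females rests on the first probe.

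Has2, the hyaluronan synthase, followed the same pattern on another chromosome. Its single probe, A_44_P341877, lies at chr7:93264665-93264724 on the minus strand, and its first 30 bases are given 5′ to 3′.
Has2 probe: tgcagacttccgtaacacacatgaatgtag

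Has2 stood at -8.40, -9.07 and -8.34 in female dexamethasone, measured on 0 of 3 arrays. It stood at -4.17, -4.14 and -4.61 in female vehicle, measured on 3 of 3. As for Ptgs2, no female dexamethasone value came near a female vehicle value. Has2 was at least 5.24-fold lower with dexamethasone in females (limma difference -4.30 ± 0.42, SE, adjusted p = 0.00043). The blocked difference was -3.99 (adjusted p = 0.0088), and that with normexp was -0.92 (limma adjusted p = 0.013).

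In male cultures neither gene was measured. Ptgs2 at its first probe stood at -7.66, -8.89 and -8.71 in male dexamethasone and at -5.23, -5.32 and -6.34 in male vehicle, with 0 arrays above background in either group. Has2 stood at -7.80, -9.42 and -9.05 in male dexamethasone and at -5.14, -5.46 and -6.27 in male vehicle. The groups did not overlap and both genes passed the limma test in males, at -2.79 ± 0.39 for Ptgs2 (adjusted p = 0.0026) and -3.13 ± 0.42 for Has2 (adjusted p = 0.0019). These were the 2 of 6 genes called in males, where 4.85% of probes tested fell; rises made up 52.5% of all male calls, 33.1% with median scaling and 67.2% with quantile normalization. Since both sides were below background, no fold is given. The 6299 probes that no array measured had a median difference of -2.85 in males, with -3.27 and -2.12 as 10th and 90th percentiles, and of 0.23 in females; the male differences of Ptgs2 and Has2 lie within that range. All 26 usable male vehicle spots of the first Ptgs2 probe held the stand-in value, against 19 of 29 in male dexamethasone, and the second Ptgs2 probe moved by -3.00 in males. The lowest level that any measured probe reached was -3.49, -3.37 and -4.60 on the male vehicle arrays and -7.23 to -5.74 on the male dexamethasone arrays. With slide as a block the male differences were -2.03 for Ptgs2 and -2.18 for Has2 (adjusted p = 0.068 and 0.049). They were -1.15 and -1.38 with quantile normalization and -0.60 and -0.70 with normexp (limma adjusted p 0.012 to 0.040).

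**Figure D2:**
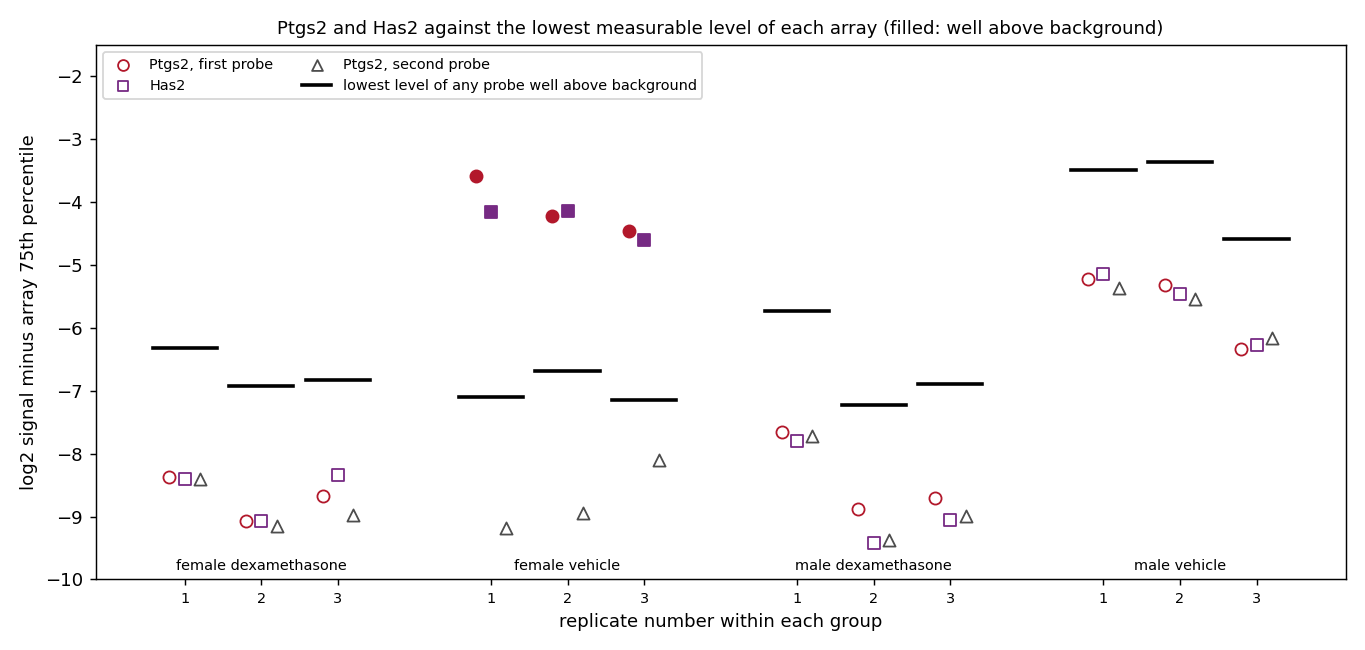
Log2 level relative to the array's 75th percentile of both Ptgs2 probes and of Has2 on each array (points, filled where well above background), with the lowest level of any probe well above background on that array (black lines). In female vehicle the first Ptgs2 probe and Has2 lie above the line at -6.69 to -7.14, and on the male vehicle arrays, where the line is at -3.37 to -4.60, all 3 probes lie under it.

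Levels of Ptgs2 and Has2 had a Pearson r of 0.99 over the 12 arrays, the highest of each gene with any of 16130 named probes. The next were Tgif1 (0.96 with Ptgs2), Il6 (0.96), Stx6 (0.95) and Clcf1 (0.95), and the same 4 genes in the same order followed for Has2 at 0.96 to 0.97. These correlations are descriptions: the points share slides and treatment, and Ptgs2 and Has2 were measured on 3 of the 12 arrays. The interleukin 6 gene Il6, fixed in the list of inducing cytokines, stood at -6.95, -6.62 and -6.53 in female dexamethasone and at -4.65, -4.50 and -4.74 in female vehicle.

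RNA of other liver cells was present beside that of hepatocytes, and in these bulk samples fewer cells of a type and less RNA per cell cannot be told apart. The summed linear signal of 11 stellate cell and fibroblast markers was 5.41 to 7.27 times the 75th percentile in female dexamethasone and 8.64 to 14.8 times in female vehicle, without overlap. In males it was 2.85 to 6.43 in dexamethasone and 4.90 to 7.60 in vehicle. Of the 9 stellate cell markers tested in females, 1 fell with dexamethasone, Pdgfrb, a receptor of platelet-derived growth factor (limma difference -1.13, adjusted p = 0.048), and 0 rose. Lum was well above background on no array, Thy1 on none in female or male vehicle, Lrat and Pdgfrb on none in male vehicle, and Hgf on none in either male group. The summed signal of 10 endothelial markers was 15.6 to 25.5 times the 75th percentile in female dexamethasone and 25.8 to 38.9 times in female vehicle, again without overlap, and in males it was 14.9 to 20.9 in dexamethasone and 16.7 to 26.7 in vehicle. Of the 9 endothelial markers tested, 1 rose in females, Vwf (limma difference 1.75, adjusted p = 0.037), and 0 fell. Among all probes tested, 2.8% rose and 1.01% fell in females. Tek was well above background on no array, Emcn on none in either male group, and Pecam1 and Tie1 on none in male vehicle. The part of stellate, fibroblast and endothelial cells in the falls of Ptgs2, Has2 and Pla2g4a was not tested.

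Pla2g4a, which releases the substrate of the cyclooxygenases, was measured on 11 of 12 arrays. Its probe A_44_P477620 lies at chr13:64160232-64160291 on the minus strand of rn3, on the same chromosome as Ptgs2. It stood at -3.62, -3.03 and -3.29 in female dexamethasone and at -2.39, -1.41 and -2.10 in female vehicle. No dexamethasone array reached a vehicle array. Pla2g4a was 2.54-fold lower with dexamethasone in females (limma difference -1.35 ± 0.26, SE, adjusted p = 0.020). It did not pass once slide was fitted (-1.21, adjusted p = 0.24), nor without female vehicle replicate 3 or female dexamethasone replicate 1 or 3 (limma adjusted p 0.061 to 0.093).

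In males Pla2g4a stood at -4.02, -3.76 and -4.18 in dexamethasone and at -3.47, -2.96 and -3.24 in vehicle, where replicate 1 was not above background. The groups did not overlap here either. The difference of -0.76 ± 0.26 did not pass the limma test (adjusted p = 0.091), and it passed with the replicate number as a block (adjusted p = 0.021), with quantile normalization (0.046) and with normexp (0.029). With slide as a block it was -0.80 (adjusted p = 0.36). The genes whose levels were most like Pla2g4a over the 12 arrays were Oasl (Pearson r 0.95), Slc1a5 (0.95), Tpm3 (0.94), Scd2 (0.93) and Slco1a4 (0.93), given as a description.

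**Figure D3:**
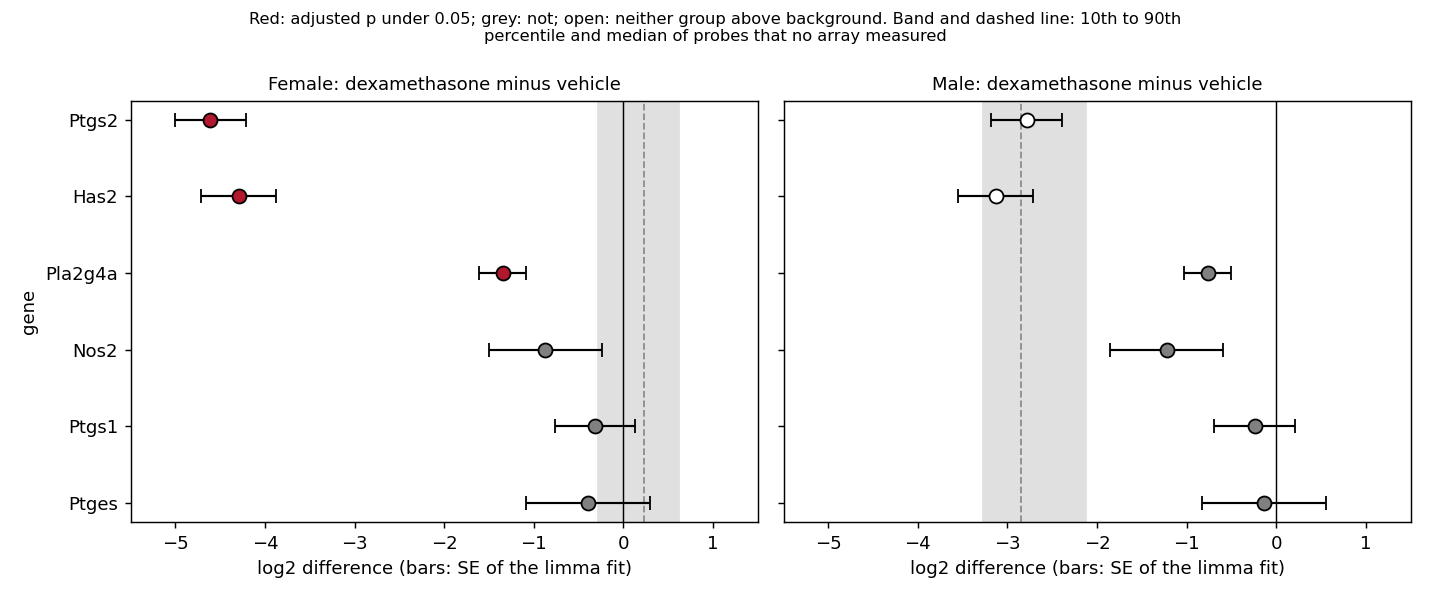
Log2 difference of dexamethasone minus vehicle (horizontal axes; points with SE of the limma fit) of the 6 genes in females (left) and males (right), red where the adjusted p was under 0.05 and both groups or one group was measured, open where neither was. The grey band shows the 10th to 90th percentile of 6299 probes measured on no array. In females Ptgs2 (-4.61) and Has2 (-4.30) lie outside it, and in males (-2.79 and -3.13) inside it. Both genes were tested only because female vehicle measured them, and the band holds only probes that it did not. Their place outside it in females thus follows in part from the filter and is no test.

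Of the genes called as lower in females, promoters are shown for Ptgs2 and Pla2g4a. Each holds the 250 bases before the RefSeq gene start on build GRCr8, 5′ to 3′ along the gene. Capitals mark matches to the motifs searched on both strands: the TATA box (TATAAA), the E-box (CACGTG), the motif of AP1 factors (TGANTCA), that of C/EBP factors (TTNNGNAA), that of CREB factors (TGACG), that of Sp1 (GGGCGG), and, by name, the glucocorticoid response element and the kappaB consensus. Matches of different motifs overlapped in 0 places in these windows. Ptgs2 is at chr13:64713813-64714062 on the plus strand and Pla2g4a at chr13:64572353-64572602 on the minus strand.
Ptgs2 promoter: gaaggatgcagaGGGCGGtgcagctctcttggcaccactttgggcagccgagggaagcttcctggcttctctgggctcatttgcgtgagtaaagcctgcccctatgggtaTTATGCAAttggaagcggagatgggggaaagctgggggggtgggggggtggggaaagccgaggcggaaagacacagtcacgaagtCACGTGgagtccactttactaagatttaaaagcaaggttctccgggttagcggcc
Pla2g4a promoter: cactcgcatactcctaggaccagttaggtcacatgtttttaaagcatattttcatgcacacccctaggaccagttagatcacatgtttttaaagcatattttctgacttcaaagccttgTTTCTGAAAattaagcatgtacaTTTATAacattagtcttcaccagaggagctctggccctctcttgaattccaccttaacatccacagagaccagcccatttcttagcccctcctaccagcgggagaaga

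The Ptgs2 window held CACGTG, the E-box, starting 55 bases before the gene start, a motif that 5.59% of 33469 promoters hold in the same window. It also held TTNNGNAA, the form bound by C/EBP factors, at 140 bases (37.2% of promoters) and GGGCGG, the Sp1 motif, at 238 bases (30.5%). The Pla2g4a window held TATAAA at 108 bases (12.9%), on the strand opposite to the gene and so printed as TTTATA. It also held a pair of overlapping TTNNGNAA matches at 131 and 130 bases. Neither window, nor those of Ptgs1 and Ptges, held the letters of the glucocorticoid response element (0.373% of promoters), the kappaB consensus (6.33%), TGANTCA (6.34%) or TGACG (18.2%). A match is a description of letters and not of a bound site. Has2, which also fell in females, and Nos2 are named only, since no promoter sequence was at hand for either.

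Nos2, the inducible nitric oxide synthase, was measured on 11 of 12 arrays. Its probe A_44_P545686 was spotted 10 times an array and spans chr10:65083834-65085873 on the plus strand of rn3, 2040 bases of the genome for 60 bases of probe, so that it crosses at least 1 intron. The sequence is shown 5′ to 3′ because such a probe reads spliced RNA.
Nos2 probe: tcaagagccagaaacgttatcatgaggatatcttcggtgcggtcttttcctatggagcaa

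Nos2 stood at -3.82, -3.85 and -3.97 in female dexamethasone and at -3.18, -3.02 and -2.82 in female vehicle. The female groups were tight and did not overlap, at -3.88 ± 0.08 and -3.00 ± 0.18 (SD, n = 3 each). In males Nos2 stood at -4.71, -3.53 and -4.55 in dexamethasone and at -4.64, -1.37 and -3.12 in vehicle, where replicate 1 was not above background. The male groups overlapped, and replicate 2 was the highest array in both. Since the male vehicle arrays had an SD of 1.64, the spread shared by the 4 groups was wide, and the female difference of -0.87 ± 0.63 did not pass the limma test over all arrays (adjusted p = 0.59). Fitted to the 6 female arrays alone, the same difference had an SE of 0.12 and passed (limma adjusted p = 0.015). With slide as a block over all arrays it was -1.06 ± 0.96 (SE, limma adjusted p = 0.86), and that SE again includes the spread of the male arrays. The difference within slide 3 was the same -1.06. The male difference of -1.22 ± 0.63 did not pass (adjusted p = 0.24); with slide as a block it was -1.67 (adjusted p = 0.42), and with normexp it was -1.02 and passed. It depended on single vehicle arrays: without male vehicle replicate 1, where the probe was not above background, it was -2.02 (limma adjusted p = 0.030), and without replicate 2, the highest, it was -0.39 (limma adjusted p = 0.61). The genes most like Nos2 over the 12 arrays were Hnrnpdl (Pearson r 0.96), Tnfsf15 (0.94), Dennd2d (0.93), Sema4g (0.93) and Hsf2 (0.92).

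Ptgs1, the constitutive cyclooxygenase, was measured on all 12 arrays. Its probe A_44_P137448 lies at chr3:15261487-15261546 on the plus strand of rn3, and had 10 spots an array. It stood at -0.27, 0.85 and 0.82 in female dexamethasone and at 0.24, 1.17 and 0.95 in female vehicle. In males it stood at -1.003, 0.09 and -0.22 in dexamethasone and at -1.01, 0.25 and 0.35 in vehicle. Dexamethasone and vehicle overlapped in both sexes, and replicate 1 was the lowest of its group in all 4 groups. The difference was -0.32 ± 0.45 in females (limma adjusted p = 0.85) and -0.24 ± 0.45 in males (limma adjusted p = 0.78), with slide-blocked differences of -0.48 and -0.87 (adjusted p = 0.95 and 0.53). In females the order of levels was vehicle, then dexamethasone, both above the male means, with male vehicle above male dexamethasone; no neighbours in this order differed by more than their SD.

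Ptges, the prostaglandin E synthase, also showed no difference by treatment past the test. Its probe A_43_P12079 lies at chr3:9842109-9842168 on the minus strand of rn3. It stood at -1.55, -0.39 and -0.88 in female dexamethasone and at -0.91, 0.02 and -0.77 in female vehicle. In males it stood at -3.66, -1.33 and -3.06 in dexamethasone and at -3.90, -1.28 and -2.47 in vehicle, where replicate 1 was not above background. Replicate 2 was the highest array of every group. The difference was -0.39 ± 0.69 in females (limma adjusted p = 0.89) and -0.13 ± 0.69 in males (limma adjusted p = 0.93), with slide-blocked differences of -0.18 and -1.11 (adjusted p = 1.00 and 0.62).

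Ptgs1 and Ptges moved together over the arrays, with a Pearson r of 0.90, given with the genes most like each as a description. For Ptgs1 they were Fmnl1 (0.98), S100a4 (0.98), Hk3 (0.97), Pdpn (0.96) and Abr (0.96). For Ptges they were Plek (0.99), Lilrb4 (0.98), Ceacam4 (0.97), Pf4 (0.97) and Melk (0.97). The summed linear signal of 12 Kupffer cell markers, the genes of the liver's resident macrophages, was 45.7, 106 and 87.5 times the 75th percentile in female dexamethasone and 39.4, 88.8 and 68.1 times in female vehicle. It was 38.0, 58.3 and 42.7 times in male dexamethasone and 31.7, 57.2 and 40.5 times in male vehicle. Replicate 1 was the lowest and replicate 2 the highest array of each group in this sum. All 12 markers were measured on every array of 3 groups, and in male vehicle 10, 10 and 11 of them were. Of the 12 markers, 0 passed the limma test in either dexamethasone response, with a median of -0.04 in females and 0.28 in males. The part of these cells in the levels of Ptgs1 and Ptges was not tested.

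**Figure D4:**
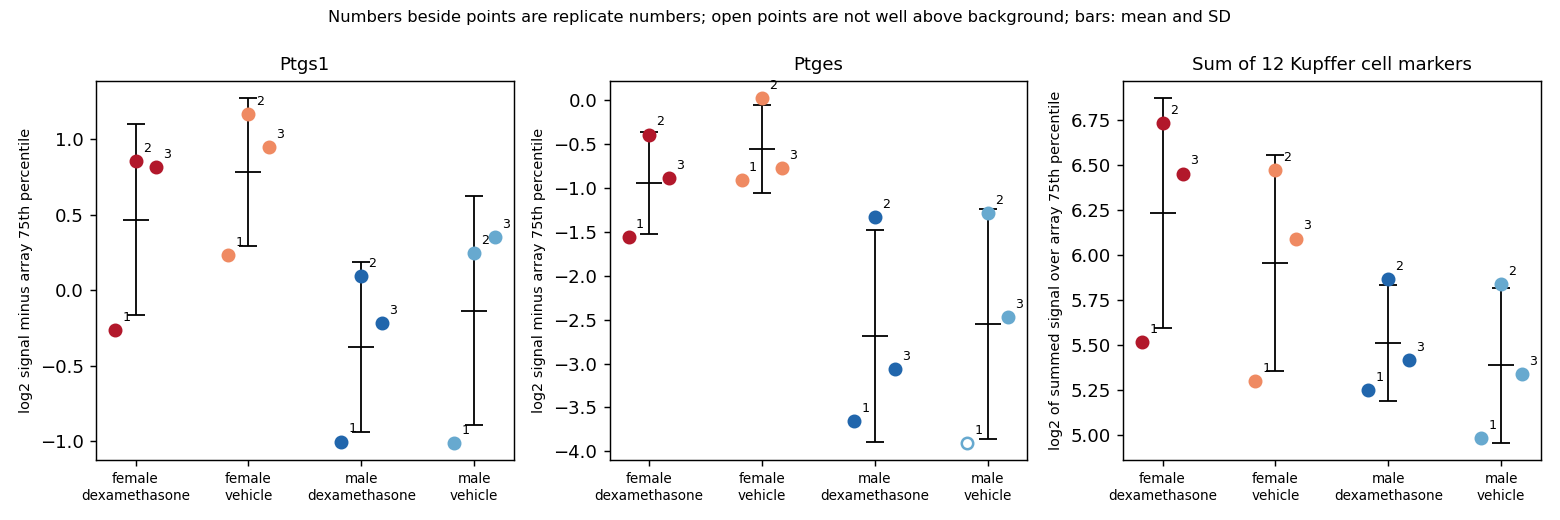
Log2 level of Ptgs1 and Ptges relative to the array's 75th percentile (left and middle) and log2 of the summed signal of 12 Kupffer cell markers over the 75th percentile (right) on each array, by group, with replicate numbers beside the points and mean and SD as bars; sums are drawn filled on every array. In each group the marker sum is lowest on replicate 1 and highest on replicate 2, the order that Ptges shows in each group too.

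Whether the response to dexamethasone differed between the sexes was tested as the female minus the male difference. None of the 6 genes passed, where 0.107% of probes did. By limma Ptgs2 alone had an unadjusted p under 0.05 among the 6 genes (-1.82 ± 0.56, adjusted p = 0.20), and 1 gene, Ptgs2, passed with quantile normalization (-2.77, adjusted p = 0.0064). With all probes tested, dim ones included, the first Ptgs2 probe passed at -1.82 (limma adjusted p = 0.048). That fit called 7427 probes, 6969 of them higher. The second, unmeasured probe stood at 2.90. The 6299 probes that no array measured had a median of 3.11 here, with 2.11 and 3.57 as 10th and 90th percentiles. As the male response of the first Ptgs2 probe was between levels below background, its difference of responses has no fold. The others were -1.16 ± 0.59 for Has2, -0.58 ± 0.37 for Pla2g4a, 0.35 ± 0.89 for Nos2, -0.26 ± 0.98 for Ptges and -0.08 ± 0.64 for Ptgs1 (limma adjusted p 0.49 to 0.98).

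Female and male cultures were also compared within each treatment. In vehicle, Pla2g4a was higher in females, 2.39-fold (limma difference 1.26 ± 0.26, adjusted p = 0.012; -1.97 ± 0.51 in female and -3.22 ± 0.26 in male vehicle, SD, n = 3 each). Ptgs2 passed as well at 1.54 ± 0.39 (limma adjusted p = 0.027). It was tested only because female vehicle measured it, so the filter favoured this call. No fold is given for Ptgs2, since the female level of -4.09 lies below the lowest measurable level on 2 of the 3 male vehicle arrays. These were 2 of 6 genes higher in females, where 6.25% of probes were, and 0 were lower, where 7.73% of probes were (44.7% of all calls were higher in females, 63.6% with quantile normalization). The other differences in vehicle were 2.00 ± 0.69 for Ptges (adjusted p = 0.077), 1.32 ± 0.42 for Has2 (adjusted p = 0.058), 0.92 ± 0.45 for Ptgs1 (adjusted p = 0.20) and 0.04 ± 0.63 for Nos2 (adjusted p = 0.98), by limma. No male vehicle array measured Ptgs2 or Has2. Has2 too was tested only through female vehicle, and no fold is given for it. The 6299 probes that no array measured had a median difference of -3.24 here, with -3.61 and -2.41 as 10th and 90th percentiles.

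No slide held both sexes in the same treatment, so no value within a slide could be had. With slide as a block the vehicle differences were 1.28 for Pla2g4a (adjusted p = 0.30) and 2.86 for Ptgs2 (adjusted p = 0.082), and those of Ptgs1 and Nos2 turned to -0.10 and -0.73. The Ptgs2 call was also lost without male vehicle replicate 3 or female vehicle replicate 1 or 2 (limma adjusted p 0.061 to 0.10). Beside these differences, the median of the 12 Kupffer cell markers was 0.92 higher in female than in male vehicle, with 2 of the 12, Csf1r (difference 1.85) and Itgam (measured on 1 of 3 male arrays), past the test. Of 9 stellate cell markers, 5 were higher in female vehicle, and 2 with slide as a block. Col3a1 differed by 2.40 and Col1a2 by 2.21, Lrat was at least 6.37-fold and Pdgfrb at least 4.84-fold higher, with no male vehicle array measuring either, and Dcn was measured on 1 of 3 male vehicle arrays. Of 9 endothelial markers, 2 were higher and 1 lower. Their part in the sex differences of Pla2g4a and Ptgs2 was not tested.

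In dexamethasone none of the 6 genes passed, where 2.99% of probes did, although 2 had an unadjusted p under 0.05 by limma. These were Ptges, at 1.74 ± 0.69 (adjusted p = 0.21), and Pla2g4a, at 0.68 ± 0.26 (adjusted p = 0.20). Ptgs1 differed by 0.84 ± 0.45 (adjusted p = 0.35), and with the replicate number as a block Ptges and Ptgs1 passed (adjusted p = 0.020 and 0.018). With slide as a block the differences were 1.58 for Ptges, 0.86 for Pla2g4a and 0.29 for Ptgs1 (adjusted p 0.68 to 0.95). Nos2, Has2 and Ptgs2 differed by 0.39 ± 0.63, 0.15 ± 0.42 and -0.29 ± 0.39 (adjusted p 0.76 to 0.89), and neither sex was above background for Has2 and Ptgs2. The Kupffer cell markers had a median of 0.84 higher in female than in male dexamethasone, with 0 of 12 past the test. The stellate cell markers had a median of 1.02 higher, with 2 of 9 past the test, Lrat (difference 2.90, adjusted p = 0.0050) and Pdgfrb (measured on 2 of 3 male arrays; adjusted p = 0.00028), and 1 with slide as a block. Their part in these differences was not tested.

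The genes around these enzymes were followed as lists. No gene of these lists passed the difference of responses, so a call in females or males alone does not show that the sexes differ. Of the 13 measured inducing cytokines, receptors and mediators, 3 fell and 2 rose in females, where 1.01% of probes fell and 2.8% rose. The 3 were Il1b (34.1-fold lower), Il1a (9.93-fold lower, measured on 2 of 3 dexamethasone arrays) and Il6 (limma adjusted p = 0.0028). Il6 was measured on 1 of 3 dexamethasone arrays, and was 3.64-fold lower with the others at no less than their lowest measurable level. Il1a and Il1b encode forms of interleukin 1, which is known to induce Ptgs2 and Nos2. Il1b stood at -3.80, -3.26 and -3.42 in female dexamethasone and at 1.59, 1.98 and 1.21 in female vehicle. The risers were Il1r1, the interleukin 1 receptor (2.19-fold, adjusted p = 0.018), and Nfkbia, the inhibitor that holds NF-kappaB in the cytoplasm (2.16-fold, adjusted p = 0.038). In males 7 fell and 1 rose, where 4.85% fell and 5.35% rose. Il1b was 29.2-fold lower and Il1a 9.25-fold with unmeasured dexamethasone arrays at their lowest measurable level (adjusted p = 0.00025 and 0.00091), Il1b without male vehicle replicate 2, whose spot was marked as an outlier, and Il1a measured on 2 of 3 arrays of each male group, and Irf1, an interferon-induced transcription factor, was 2.92-fold lower (adjusted p = 0.0052); Il1r1 was 2.88-fold higher (adjusted p = 0.0027). The other 4 that fell were Nfkb1, Rela, Tnfrsf1a and Il6, the last between levels measured on 1 of 6 arrays. Irf1, Nfkb1 and Rela were not called in females, though each was lower on every dexamethasone array than on every vehicle array there, as 17% of probes were. Tnfrsf1a and Nfkbia were lower in female than in male vehicle (differences -0.61 and -0.89, adjusted p = 0.028 and 0.041). In the fit with slide 2 fell in each sex and 0 rose. The list's median was -0.49 in females and -0.78 in males.

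**Figure D5:**
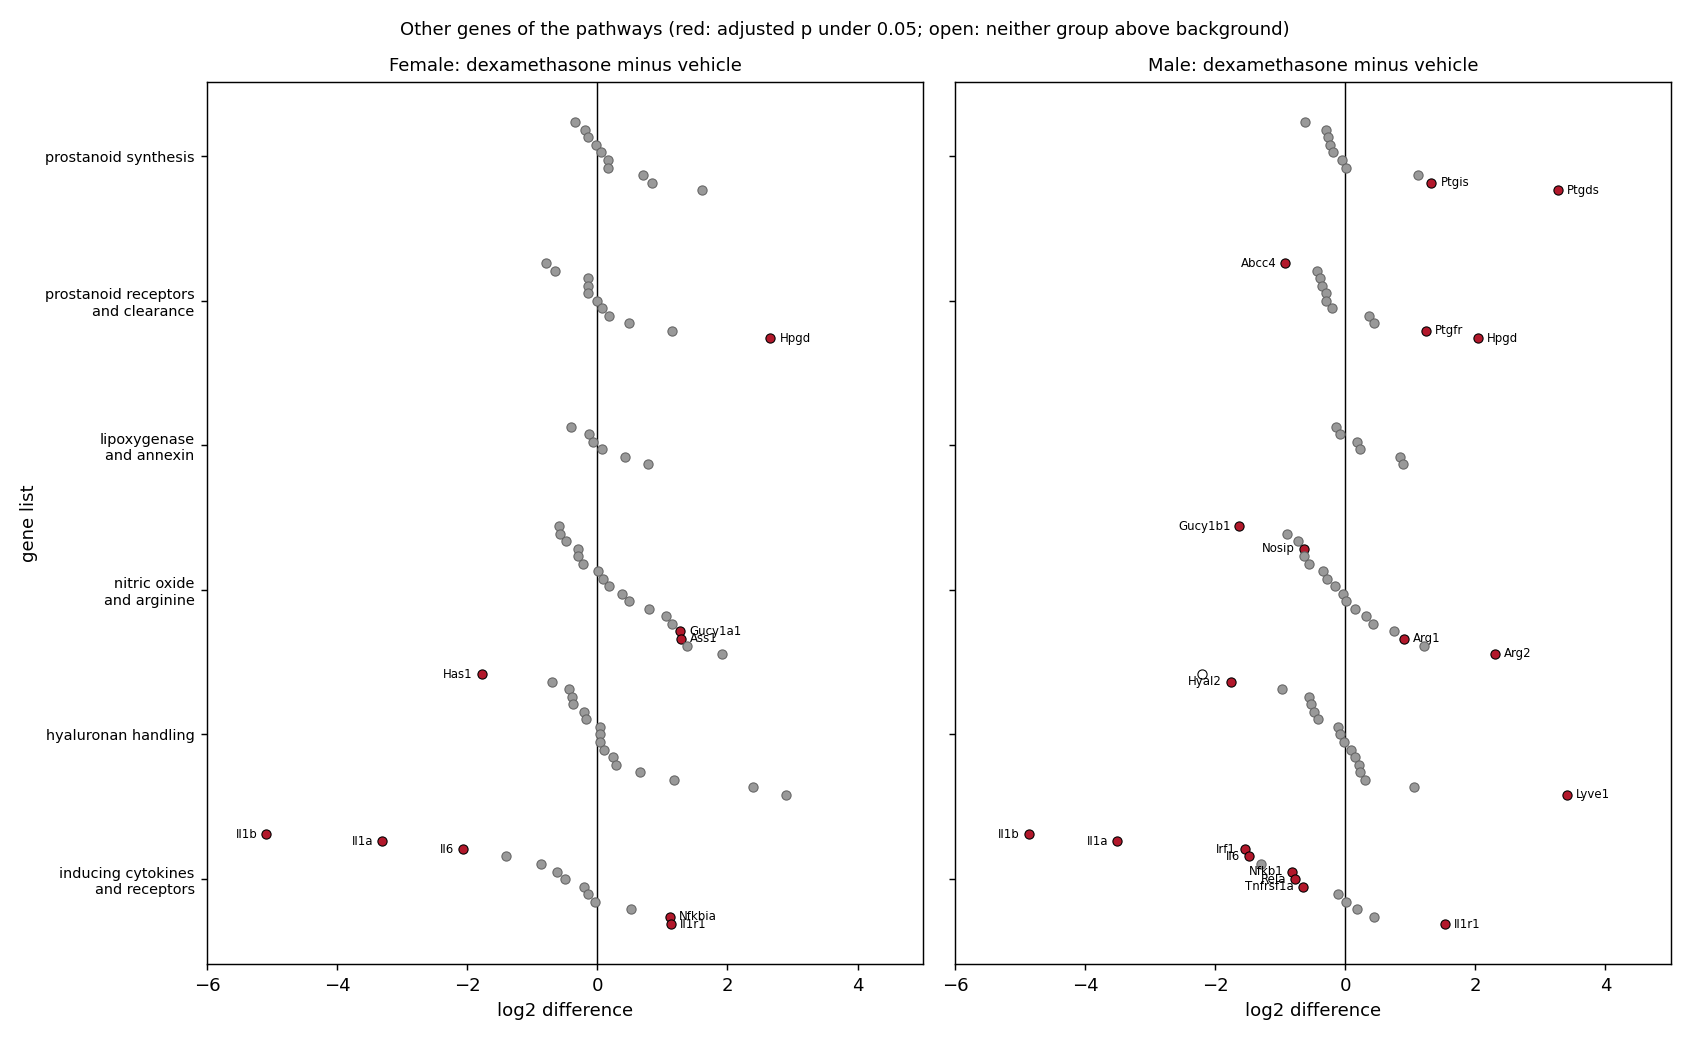
Log2 difference of dexamethasone minus vehicle (horizontal axes) of the other measured genes of 6 fixed lists (rows), 1 point a gene, in females (left) and males (right). Red points passed the test and are named; the left-most are Il1b (-5.09 in females, -4.87 in males) and Il1a, and the open point is Has1 in males, below background in both groups.

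Among 10 measured genes of prostanoid synthesis, 0 passed the test in females. In males 2 rose and 0 fell: Ptgds, a prostaglandin D synthase, was 7.51-fold higher with male vehicle replicate 1, which did not measure it, at that array's lowest measurable level (adjusted p = 0.0056), and Ptgis, the prostacyclin synthase, at least 1.13-fold higher (adjusted p = 0.032). Ptgds stood at -1.25, 0.60 and 0.00 in male dexamethasone and at -4.59, -2.84 and -3.03 in male vehicle, without overlap. In females, where it did not pass, it stood at -2.11, -2.57 and -2.93 in dexamethasone. On the female vehicle arrays it stood at -4.00, -4.72 and -3.74, also without overlap. It was lower in female than in male dexamethasone (difference -2.32, adjusted p = 0.046). Neither riser passed with slide fitted (adjusted p = 0.12 and 0.26). Of 11 measured receptors and clearance genes, 1 rose in females and 0 fell, and in males 2 rose and 1 fell. Beside the counts of both lists, 2.8% of probes tested rose and 1.01% fell in females, and 5.35% rose and 4.85% fell in males.

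The riser in both sexes was Hpgd, the dehydrogenase that inactivates prostaglandins. It stood at -2.74, -1.38 and -1.94 in female dexamethasone and at -4.88, -4.06 and -5.10 in female vehicle, 6.33-fold higher (adjusted p = 0.0076; with slide as a block 0.058). In males it stood at -3.43, -2.66 and -3.23 in dexamethasone and at -5.41, -5.59 and -4.42 in vehicle, where no array measured it, and it was at least 1.58-fold higher (adjusted p = 0.015; with slide as a block 0.19). Ptgfr, the prostaglandin F receptor, was 1.73-fold higher in males by the same rule (adjusted p = 0.043; measured on 1 of 3 vehicle arrays). Abcc4, an exporter of prostaglandins, was 1.90-fold lower in males (limma adjusted p = 0.017, and 0.030 with slide as a block). In females, without a call, it stood at -1.54, -1.43 and -1.68 in dexamethasone. On the female vehicle arrays it stood at -0.84, -0.55 and -0.90, without overlap. Between the sexes in vehicle, Ptger2, a prostaglandin E2 receptor, was higher in females (adjusted p = 0.045; measured on 2 of 3 male arrays) and Ptgr1 lower (difference -1.02, adjusted p = 0.031), and in dexamethasone Ptgir, the prostacyclin receptor, was higher in females (difference 0.68, adjusted p = 0.040). Of 6 lipoxygenase and annexin genes, 0 passed the test in either response. Alox5 was at least 1.13-fold higher in female than in male vehicle (limma adjusted p = 0.0079).

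Of 18 measured genes of nitric oxide and arginine metabolism, 2 rose and 0 fell in females, where 2.8% of probes rose and 1.01% fell. The risers in females are named first. They were Ass1, the argininosuccinate synthase that regenerates arginine (2.43-fold, adjusted p = 0.015), and Gucy1a1, a subunit of the nitric oxide receptor (2.41-fold, adjusted p = 0.035). In males 2 rose and 2 fell, where 5.35% of probes rose and 4.85% fell. The risers were the arginases Arg2 (3.03-fold with unmeasured arrays at their lowest measurable level, adjusted p = 0.027; measured on 1 of 3 vehicle arrays) and Arg1 (1.86-fold, adjusted p = 0.044), which consume the arginine that nitric oxide synthases use. Neither arginase was called in females, where Arg2 stood at -2.75, -2.39 and -2.03 in dexamethasone and at -4.66, -4.35 and -3.90 in vehicle. Arg1 stood there at 4.90, 5.24 and 5.20 against 4.17, 4.78 and 4.03, and the female groups overlapped for neither. In males Gucy1b1 passed as lower between levels measured on 1 of 6 arrays, and Nosip, an interactor of nitric oxide synthases, was 1.56-fold lower (limma adjusted p = 0.046). With the slide term, 0 of the 18 passed in either sex. In vehicle, Arg1 was higher in females (difference 0.91, adjusted p = 0.034) and Gchfr, which regulates cofactor synthesis, lower (difference -1.25, adjusted p = 0.010), with Ass1 and Nosip also lower. In dexamethasone, Gucy1b1 was higher in females (adjusted p = 0.022; measured on 1 of 3 male arrays).

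Of 17 measured genes of hyaluronan handling, 1 fell in females and 0 rose, where 1.01% of probes fell and 2.8% rose. In males 2 fell and 1 rose, where 4.85% fell and 5.35% rose. Has1, another hyaluronan synthase, stood at -8.47, -7.79 and -7.17 in female dexamethasone, measured on 0 of 3 arrays, and at -5.89, -6.30 and -5.89 in female vehicle, measured on 3. It was at least 1.59-fold lower (limma adjusted p = 0.040, and 0.24 with slide as a block) and was tested through female vehicle alone. In males Has1, like Has2, was below background in both groups (-2.21, adjusted p = 0.0095). Hyal2, a hyaluronidase, was 3.40-fold lower in males (adjusted p = 0.0013; with slide as a block 0.039), at 3.52, 3.19 and 3.16 in male dexamethasone against 4.85 and 5.26 in male vehicle replicates 1 and 2. Its spot on male vehicle replicate 3 was left out as an outlier. Lyve1, a hyaluronan receptor of liver endothelium, was higher in males (adjusted p = 0.022; with slide as a block 0.16), 5.68-fold by the rule used for Arg2, as 1 of 3 vehicle arrays measured it, and its female difference of 2.90 ± 0.78 did not pass (limma adjusted p = 0.069). In vehicle, Hyal3 was higher in females (difference 0.80, adjusted p = 0.0496) and Hyal2 lower (difference -1.05, adjusted p = 0.0095), as was Ambp, which supplies the light chain of the inter-alpha-trypsin inhibitors (difference -0.60, adjusted p = 0.024).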

How the data were processed

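Per the file headers, the deposited scanner files list a linear intensity for each spot, extracted by Agilent Feature Extraction 9.5.3.1 (9.5 in the submitters' processing notes). The processed signal has the background subtracted and a positive stand-in where nothing was left. The authors' value table equals that intensity for 540216 of 540216 values (relative tolerance 1e-06). Outlier spots were left out, saturated spots kept, and spots of a probe averaged as log2 values minus the array's 75th percentile. A probe was tested if some group had it well above background on each of its 3 arrays (30977 probes), with limma 3.58.1 in R 4.3.3: 4 group means over 12 arrays, Benjamini-Hochberg over all probes, two-sided, threshold 0.05. Adjusted p-values in the report come from that fit unless another is named. "At least" folds use, on each dim array, the higher of the probe's signal and the lowest measured signal. Some unmeasured probes read above that lowest signal, so these folds follow a rule and are not strict bounds. Hyal3, for example, was unmeasured at -2.69 on male vehicle replicate 2, where the lowest measured level was -3.37. The number of arrays limits the precision.

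RefSeq names replaced file names for 19885 probes and 21127 kept the file's. List genes are shown by their brightest tested probe. Named were all members, and from each list up to 3 rises and 3 falls in each response and 1 each between the sexes, by smallest p, with the rest of short counts named after their values were seen. Most alike genes had the highest Pearson r. The members and lists were chosen with earlier results of these data known.

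In simulated data the fit recovered 28 of 100 changes of 1 log2 unit in the female response and 95 of 100 of 3 units. A gene that did not pass is therefore not shown to be unchanged. Before changes were added, each simulated probe had the same mean and SD in all groups. The simulation had no slide effect, no pairing and no background limit, so its rates do not describe probes near background such as those of Ptgs2 and Has2. The replicate numbers of the labels were checked for pairing by the deviations of same-numbered arrays from their group means. These correlated at 0.40 to 0.59 between treatments in males, 0.36 to 0.54 in females and 0.23 to 0.30 between the sexes in dexamethasone. Such arrays were fitted as pairs only with the replicate number as a block, and the main fit has no such term. What same-numbered arrays of females and males share is not in the labels. Alternatives were other scalings and background corrections, other filters, slide, replicate block or array weights, fewer arrays, the authors' table and leaving out each array.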

Additional observations from a re-analysis of the deposited data

How the results depend on the processing

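Values are log2 differences or, for counts, genes of the 6 called. Over all alternatives, 630 results of single genes kept direction and side of the threshold, 26 passed newly, 19 no longer passed and 38 turned, each without a call. In males, where 2 genes were called, 4 were with normexp background correction, 1 with slide as a block, and 0 within slide 1 (where 0 of all probes passed), with probes measured on all 12 arrays (only Ptgs1 is then tested) or, chosen after seeing the data, with a call needing 1 measured array. With normexp, 4630 of all probes were called in males, 3518 of them lower. In females the 3 calls became 0 with the filter on all 12 arrays. For the difference of responses 1 was called with quantile normalization. For female against male vehicle, 2 were called, against 1 with normexp, array weights or the authors' table, 0 with slide as a block, the filter on all 12 arrays or a fit to these groups alone, and 1 to 4 when arrays were left out. With the replicate block 5 were called, as were 5611 of all probes. Same-numbered vehicle arrays of the sexes correlated at 0.18, 0.04 and 0.06 and share only a number. In dexamethasone 2 were called with the replicate block and 2 with array weights, against 0. The replicate block changed no call of the 6 genes other than those printed.

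Ptgs1 turned in females with array weights (0.012) and when arrays were left out (-0.59 to 0.051), and in males so (-0.68 to 0.073), as did Ptges in males (-0.81 to 0.50). In the difference of responses Ptgs1 turned with normexp (0.054), slide (0.39) and weights (0.25), Ptges with slide (0.93) and weights (0.26), and with arrays left out Ptgs1 ran from -0.39 to 0.36, Ptges from -0.90 to 0.41 and Nos2 from -0.49 to 1.15. In vehicle between the sexes Nos2 was -0.017 with quantile, -0.51 with normexp, -0.73 with slide, -0.14 with weights and -0.76 to 0.87 with arrays left out, Has2 was -0.14 with normexp and Ptgs1 -0.10 with slide. In dexamethasone Nos2 was -0.00384 with normexp and -0.11 with slide, Has2 -0.35 with normexp and -0.18 to 0.63 with arrays left out, and Ptgs2 0.66 with slide and -0.52 to 0.092 with arrays left out. The causes were not tested.

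Among all probes, calls numbered 574 with slide as a block against 3159 without in males, 309 against 1182 in females, 4 against 33 in the difference, 176 against 4331 in vehicle and 36 against 927 in dexamethasone between the sexes. Fitted to the groups compared alone, they numbered 333 in males, 2978 in females and 1011 in vehicle between the sexes. Unfiltered, they numbered 12610 in males, 7427 in the difference, 14243 in vehicle and 604 in dexamethasone; with array weights 1268 in males, 5720 in females, 227 in the difference, 2610 in vehicle and 5381 in dexamethasone. Quantile normalization gave 630 in females and 320 in the difference, normexp 0 in the difference and 14108 in vehicle, array median scaling 15, the intensity trend 7 and the replicate block 6 in the difference, the replicate block 1743 in dexamethasone, and the filter on all 12 arrays 577 in females and 4 in the difference. With an array left out, the fewest were 1409 in males, 354 in females, 1970 in vehicle and 205 in dexamethasone, and the difference had 0 to 664. Median scaling set the median of all probes in males at -0.18, against -0.06, and quantile normalization that of female minus male vehicle at 0.10, against -0.04. Signal over background limits Ptgs2 and Has2: on male vehicle arrays a level as low as that of female vehicle could not be measured on every array.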
